A study of Homo sapiens with 6 samples.

Results

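Protocadherin RNAs were followed in BE-(2)-C cells, a human neuroblastoma line with an amplified MYCN gene, after an siRNA against ELF4, a transcription factor of the ETS family. The members are all rows of the deposited table whose name starts with PCDH, which are 71 of 26906 rows. Of these, 69 carry a single gene name and 2 are joined rows, in which the names of 15 PCDHA genes or of 21 PCDHG genes share a line. The single-name rows are 15 PCDHA, 19 PCDHB and 22 PCDHG genes and 13 protocadherins outside the 3 clusters.

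The cells received either control siRNA or ELF4 siRNA, and polyA-selected RNA was taken after 48 hours. Both groups are the same line grown in the same medium, each with 3 libraries. The labels name 1 cell line and no second siRNA, so the values describe 1 line and the agents as labelled. Each library held 23148635 to 38097986 reads. ELF4 had a normalised read count of 42.4, 38.8 and 46.8 in control replicates 1, 2 and 3, and of 5.5, 5.6 and 3.1 in ELF4 siRNA replicates 1, 2 and 3. No ELF4 siRNA library reached any control library (exact permutation test, two-sided p = 0.1, the smallest that 3 against 3 allows).

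Protocadherins are the largest branch of the cadherin superfamily of calcium-dependent adhesion proteins. The clustered genes (alpha, beta and gamma, named PCDHA, PCDHB and PCDHG) lie in tandem on chromosome 5; in neurons each cell switches on a small set of them, and their proteins pair only with identical proteins on other cells, which lets neurites of a neuron recognise themselves. In the alpha and gamma clusters each variable first exon has its own promoter and is spliced to constant exons that all genes of the cluster share, while the beta genes are single exons without a constant part. Promoter choice depends on DNA methylation and on looping by CTCF and cohesin, and methylation across the beta genes is a known feature of neuroblastomas with poor outcome. The protocadherins outside the clusters are scattered single genes with roles in axon growth, cell sorting and synapse formation.

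Protocadherin RNAs changed in both directions, and the smallest adjusted p values belonged to PCDH10, PCDH17 and PCDH19, which lie outside the clusters. Of 69 rows tested, 18 rose and 7 fell with ELF4 siRNA at a limma adjusted p under 0.05, and 44 were not called. That is 36.2% called, against 45.1% of the 20339 rows tested in the whole table. Rises made up 26.1% of the members against 20.7% of all rows, and falls 10.1% against 24.4%. The log2 fold change ran from -0.55 to 0.97, with a median of 0.14 against 0.00 over all rows tested, and 59 of the 69 members (85.5%) were under 0.5 in size, close to the 82.9% of all rows. A call together with a change of at least 0.5 was found for 9 members, against 14.9% of all rows tested.

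The share called was smaller at low levels, among the members and among all rows. Of the 38 members with a mean normalised read count of at least 100, 50% were called, against 57.5% of all tested rows of that level. Of the 31 members below it, 19.4% were called, against 22.9%. For 26 of the 69 members (37.7%) no library of one group fell within the range of the other, against 53.6% of all rows. In 17 of them all ELF4 siRNA libraries were above (25.4% of all rows) and in 9 all were below (28.2% of all rows). PCDH8 and PCDHB1 were under the filter on low values, and PCDHGB8P passed it through 1 control and 3 ELF4 siRNA libraries, so the counts above leave out 2 members and say little about the scarcest genes. RNA came from whole cultures, so fewer cells that carry a transcript and less of it per cell cannot be told apart. The labels do not say whether the 3 libraries of a group are separate cultures, so each p measures library-to-library spread that may be technical.

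**Figure D1:**
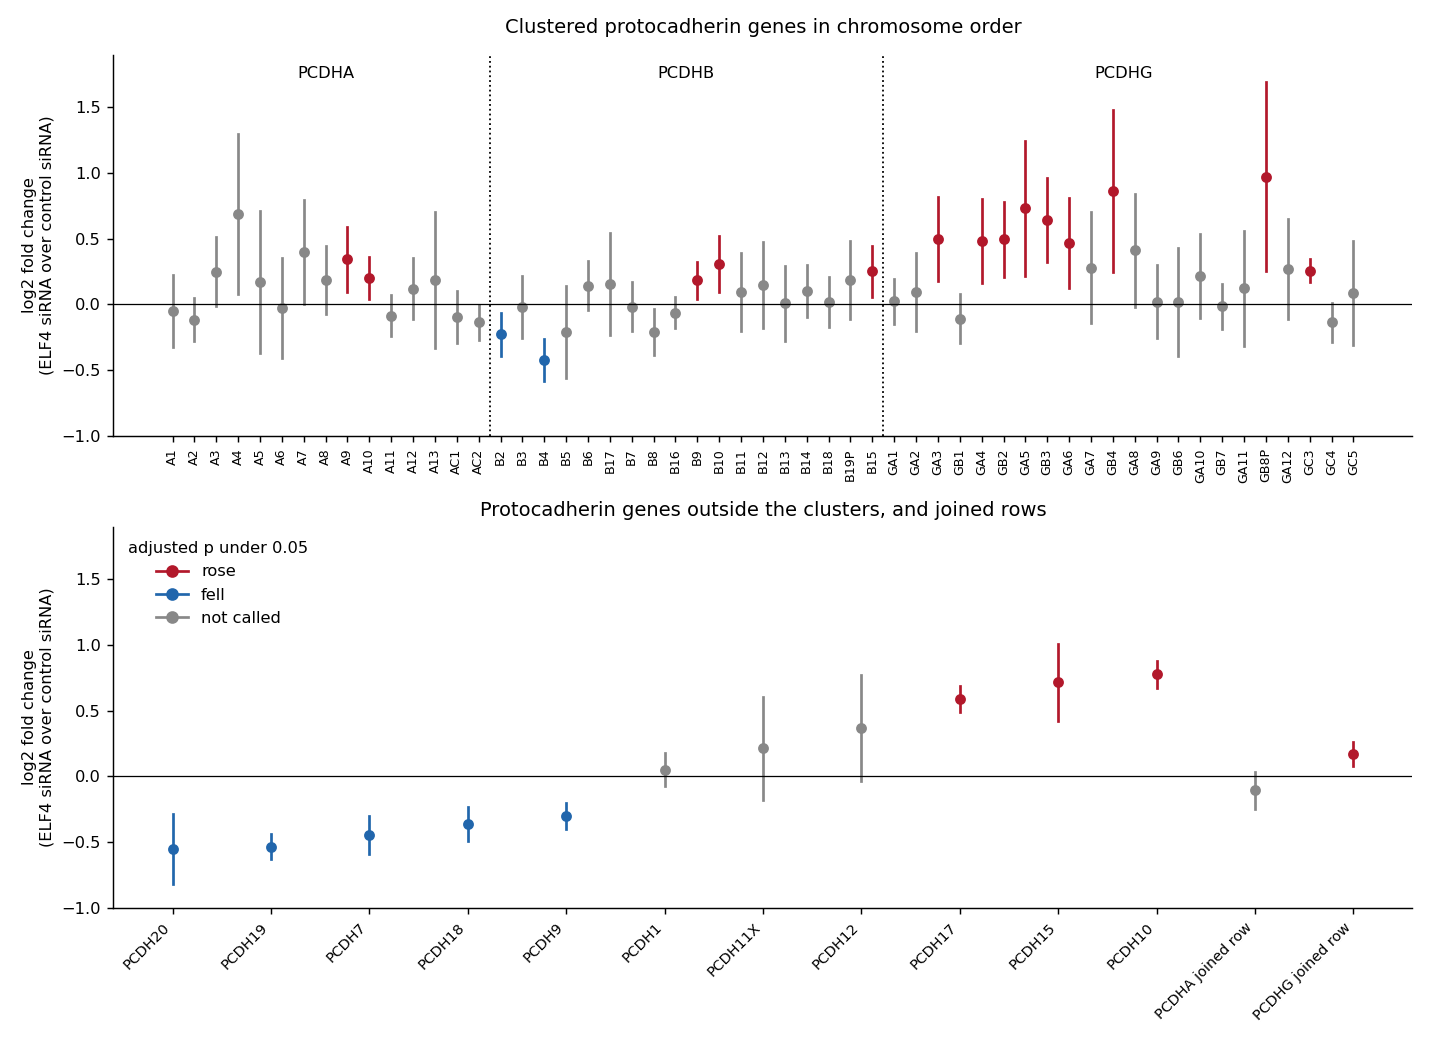
Log2 fold change, ELF4 siRNA relative to control siRNA, of the protocadherin rows tested, with its 95% confidence interval (limma, 3 libraries per group); upper panel, clustered genes in chromosome order; lower panel, genes outside the clusters (PCDH11Y is not drawn) and the 2 joined rows. Red rose, blue fell and grey was not called at an adjusted p under 0.05: most clustered genes sit near 0, a run of PCDHG genes lies above it, and genes outside the clusters lie on both sides of 0.

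Outside the clusters, 3 genes rose, 5 fell and 4 were not called (66.7% called, against 45.1% of all rows). PCDH10, a protocadherin that guides growing axons and recruits actin regulators of the WAVE complex, had 2017, 1769 and 1903 normalised reads in control replicates 1 to 3 and 3211, 3269 and 3244 in ELF4 siRNA replicates 1 to 3. Its mean rose from 1896 ± 124 to 3241 ± 28.8 (SD, n = 3), or 0.77 ± 0.05 (SE) as a log2 fold change (adjusted p = 3.52e-08). All ELF4 siRNA libraries lay far above all control libraries. PCDH17, which acts in the assembly of synaptic vesicles at presynaptic sites, had 1366, 1423 and 1448 in the control libraries and 2115, 2051 and 2190.0 in the ELF4 siRNA libraries, a rise of 0.58 ± 0.05 (adjusted p = 2.58e-07). PCDH15, best known as part of the tip links of inner-ear hair cells, was much scarcer. It had 104, 112 and 75.8 against 159, 174 and 143 and rose by 0.72 ± 0.14 (adjusted p = 0.000649). For both genes the lowest ELF4 siRNA library was above the highest control library.

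PCDH19, an X-linked gene whose loss causes an epilepsy with seizures in clusters, had 1598, 1598 and 1678 normalised reads in the control libraries and 1116, 1137 and 1108 in the ELF4 siRNA libraries. It fell by 0.54 on the log2 scale (SE 0.05, adjusted p = 5.38e-07), to 69.0% of its control mean. PCDH20 fell by 0.55 (SE 0.12, adjusted p = 0.00225) at a lower level, from 89.5, 97.1 and 105 to 58.4, 65.1 and 74.5. In neither gene did the groups overlap.

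PCDH9, the single-name row with the highest mean normalised read count, fell from 4279 ± 119 to 3473 ± 182, a log2 fold change of -0.30 ± 0.05 (adjusted p = 9.96e-05). Its libraries read 4402, 4165 and 4270.1 in control and 3283, 3493 and 3644 after ELF4 siRNA. PCDH7, whose cytoplasmic part binds the phosphatase subunit PPP1CA and the phosphatase inhibitor SET, had 495, 443 and 483 against 362, 337 and 339, a log2 fold change of -0.45 ± 0.07 (adjusted p = 8.69e-05). Both genes were lower in every ELF4 siRNA library than in any control library. PCDH18 had 905, 826 and 965 against 706, 695 and 687 and fell by 0.36 (SE 0.06, adjusted p = 0.000221), again without overlap. All 8 calls outside the clusters held when any 1 of the 6 libraries was left out, with the highest adjusted p, 0.0141, for PCDH20.

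The genes outside the clusters that were not called differed in how much their intervals allow. PCDH1, a protocadherin of airway and other epithelia, had 756, 769.9 and 793 against 789, 757 and 859, and its log2 fold change of 0.05 has a 95% interval from -0.07 to 0.18. PCDH12, known from endothelial cells, was low at 32.0, 20.6 and 26.9 against 33.0, 33.7 and 35.2. Its ELF4 siRNA libraries all lay above the control libraries, yet 0.37 had an adjusted p of 0.129 and an interval from -0.04 to 0.77. PCDH11X had 23.6, 26.3 and 24.1 against 24.2, 30.3 and 32.1 (0.21, interval -0.18 to 0.60). It is nearly identical to its copy PCDH11Y, which was not called either (0.20, adjusted p = 0.396), so reads could be split between them. PCDH8, an activity-regulated protocadherin that signals through the kinase TAOK2, was not tested: its row holds 13, 5 and 15 reads in control and 3, 6 and 6 reads in ELF4 siRNA libraries.

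Genes on the same chromosome moved in both directions. On chromosome 4, PCDH10 rose while PCDH18 and PCDH7 fell. On chromosome 13, PCDH17 rose while PCDH9 and PCDH20 fell. Per kilobase of exon in GENCODE 29, the control levels of PCDH10, PCDH17, PCDH19, PCDH9, PCDH18 and PCDH1 lay between 131 and 187 normalised reads per kb, so no order among these 6 is read from lengths that depend on the gene models. PCDH7 followed at 38.7, PCDH20 at 20.3, and PCDH15, PCDH12 and PCDH11X lay at 6.30 and below. After ELF4 siRNA, PCDH10 stood at 319 and PCDH17 at 254 per kb, and the other 4 of these genes between 104 and 136. Summed over the 13 rows the level was 11652 ± 315 in control and 12136 ± 262 in ELF4 siRNA libraries, without overlap, a difference of 0.06 as a log2 ratio beside single genes that moved by up to 0.77.

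**Figure D2:**
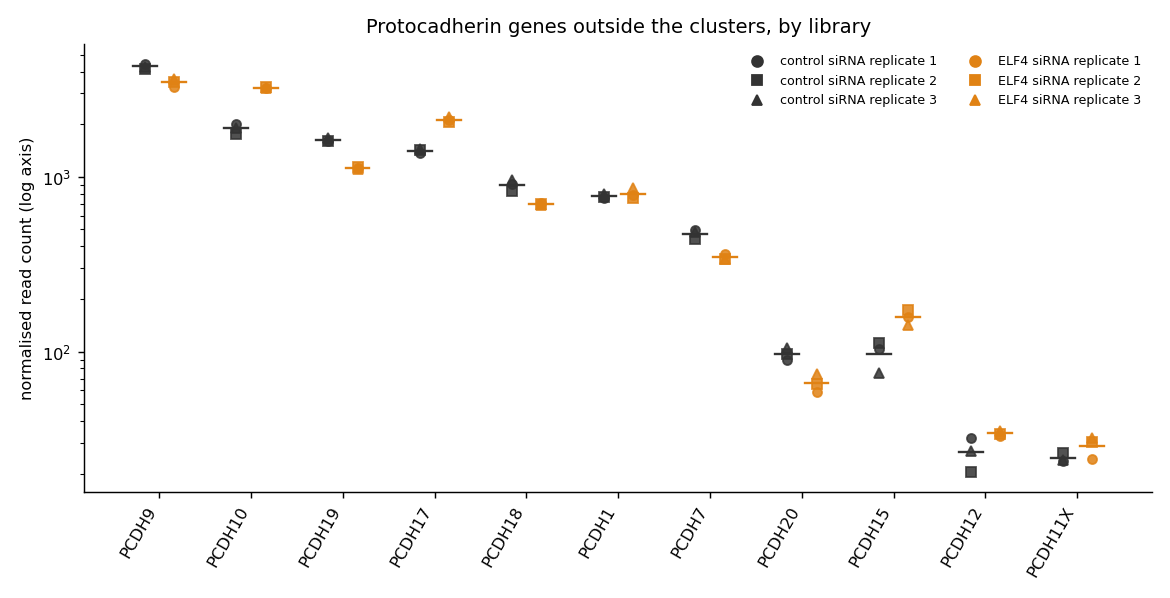
Normalised read count (log axis) of protocadherin genes outside the clusters in each of the 6 libraries, with a bar at each group mean; grey, control siRNA; orange, ELF4 siRNA; PCDH8, which was not tested, and PCDH11Y are not drawn. PCDH10, PCDH17 and PCDH15 are higher and PCDH9, PCDH19, PCDH18, PCDH7 and PCDH20 lower in all ELF4 siRNA libraries.

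In the clusters, the levels of single genes ranged widely before any change was considered. Levels are given as normalised reads per kb of exon that no other gene of the cluster shares in GENCODE 29. In control libraries PCDHGC3 had the highest of the clustered single-name rows, at 742 per kb, well above PCDHB16 at 192, PCDHAC2 at 147 and PCDHB2 at 116. PCDHGC4 at 111, PCDHGB7 at 102, PCDHA2 at 94.7, PCDHB8 at 93.2 and PCDHA11 at 77.4 followed. The lowest were PCDHB1 at 0.219, PCDHA4 at 0.912 and the pseudogene PCDHGB8P at 3.29. PCDHB1, PCDHA4 and PCDHA10 have long gene models, which lowers their values per kb. The annotation behind the deposited counts is not given, and the beta and gamma genes resemble each other closely, so reads may have been split or dropped between them.

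**Figure D3:**
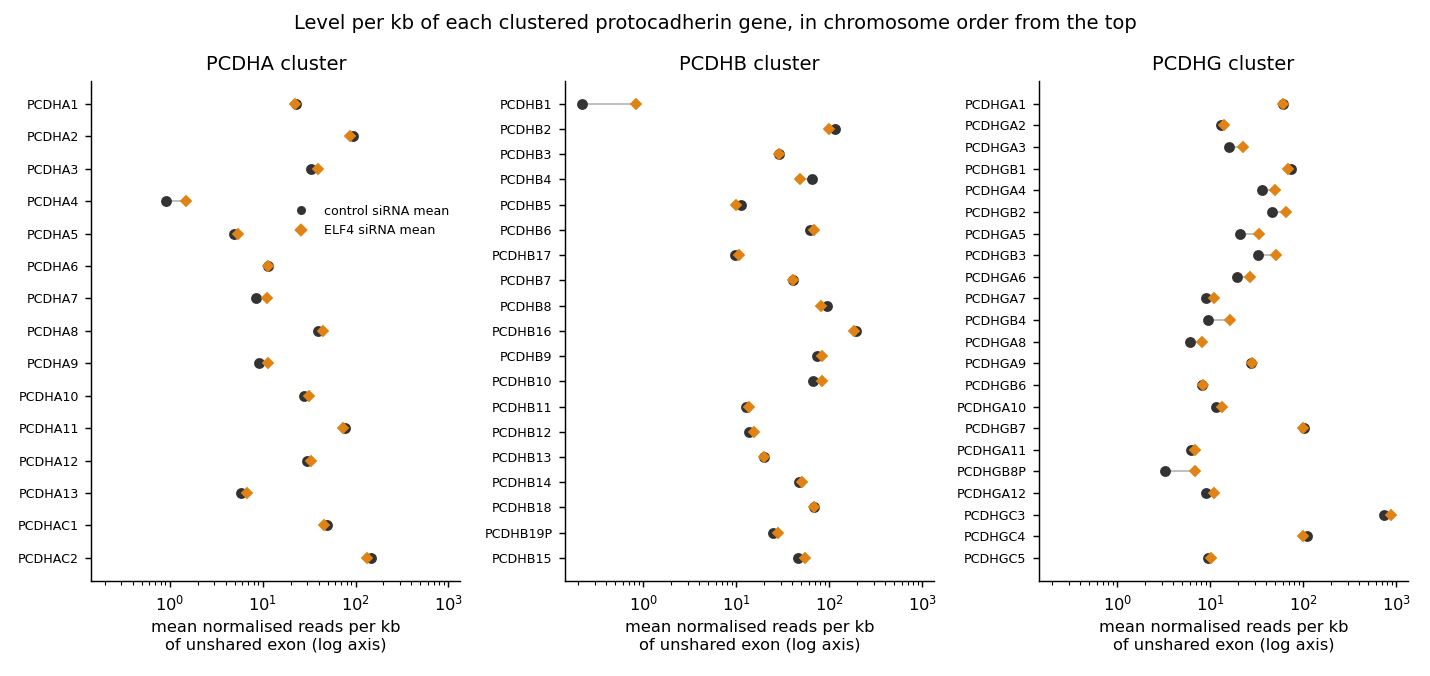
Mean normalised reads per kb of unshared exon (log axis) of each clustered single-name gene in control siRNA (grey circles) and ELF4 siRNA (orange diamonds) libraries, 3 per group, in chromosome order from the top. Levels differ by orders of magnitude between genes, with PCDHGC3 at 742 per kb in control, while the 2 group means of most genes lie close together.

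The promoters of clustered genes are shown because they carry a short conserved element that differs between the clusters. Promoters from RefSeq (build GRCh38.p14, 250 bases before to 50 after the start) were matched by symbol for 57 of the 69 single-name rows, namely 13 PCDHA, 14 PCDHB, 19 PCDHG and 11 other genes. Both strands were searched for motifs chosen after looking at these promoters. A member gene was counted once if any of its promoters held the motif, while the shares of all are shares of single promoters. TGTCGCT was found in 10 of 13 PCDHA promoters, missing in PCDHA9, PCDHAC1 and PCDHAC2, and in 1.76% of the 35116 promoters in the table. GTGGCGCT was found in 13 of 14 PCDHB promoters, missing in PCDHB1, and in 1.15% of all. GNGNCGCT, which includes GTGGCGCT and every TGTCGCT that follows a G, was found in 14 of 14 PCDHB and 18 of 19 PCDHG promoters and in none of 11 genes outside the clusters, against 19.9% of all. The CGCT end of each cluster's motif began a median of 51.5 bases before the start site in PCDHA, 61.5 in PCDHB and 60 in PCDHG. Examples are given 5′ to 3′ for alpha and beta genes, with the matched motif in capitals.
PCDHA2 (chr5:140794783-140794812, plus strand): tagccacatgaTGTCGCTgtccaccataga
PCDHA10 (chr5:140855843-140855872, plus strand): aagccaccggaTGTCGCTgtcgtccacaaa
PCDHB16 (chr5:141182312-141182341, plus strand): agaacgcgtgGTGGCGCTgcaggttaagat
PCDHB4 (chr5:141121725-141121754, plus strand): aagacgcaggGTGGCGCTgcaggctaagtt
PCDHB10 (chr5:141192301-141192330, plus strand): aggccacacgGTGGCGCTgcaggctaaaga
PCDHB4 and PCDHB10 share these 8 capital letters and the bases gcaggctaa after them, and moved in opposite directions. They are not alike in full, since PCDHB4 has a second match, GTGTCGCT, whose CGCT begins 20 bases before the start, and PCDHB10 has 1 match. For the gamma cluster, the genes from PCDHGA3 to PCDHGB4 in chromosome order are shown, with PCDHGC3 and PCDHGC4, because most of the calls in this cluster fall there.
PCDHGA3 (chr5:141343769-141343798, plus strand): aggcctcttaGTGTCGCTgttgaccactca
PCDHGB1 (chr5:141350027-141350056, plus strand): caacctctggGCGCCGCTgtcgaccaaaag
PCDHGA4 (chr5:141354962-141354991, plus strand): aagactctggGTGTCGCTgttcaccaatca
PCDHGB2 (chr5:141359923-141359952, plus strand): aaacctctgaGCGTCGCTgttggtcaaaag
PCDHGA5 (chr5:141364109-141364138, plus strand): aggactctgaGTGTCGCTgttgaccaaagt
PCDHGB3 (chr5:141370164-141370193, plus strand): gaggcgccggGTGCCGCTcttggctagtgc
PCDHGA6 (chr5:141373837-141373866, plus strand): aggactctaaGCGTCGCTgttgaccaacct
PCDHGA7 (chr5:141382651-141382680, plus strand): aggactcacaGCGCCGCTgttcaccaacca
PCDHGB4 (chr5:141387619-141387648, plus strand): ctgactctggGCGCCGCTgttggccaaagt
PCDHGC3 (chr5:141475882-141475911, plus strand): gggactctgtGTGCCGCTgtcggccaatga
PCDHGC4 (chr5:141484954-141484983, plus strand): ctgagcccggGAGCCGCTgtctgccaatcg
Among the 18 PCDHG promoters with a match, GTGTCGCT was present in PCDHGA3, PCDHGA4 and PCDHGA5, all 3 of which rose, and GCGTCGCT in PCDHGA2, PCDHGB2 and PCDHGA6, of which 2 rose. GNGCCGCT was present in the other 12, of which 3 rose. This split was made after the calls were seen and is a description of 18 neighbouring copies, with no test. CCGGAA, one of the sequences bound by ETS factors, was found in 1 of 13 PCDHA, 2 of 14 PCDHB, 1 of 19 PCDHG and 1 of 11 other promoters, against 17.2% of all. Other sequences that ETS factors bind were not searched, so these counts do not show how many promoters hold an ETS site.

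The alpha cluster barely differed between the groups. Of 15 PCDHA genes, 2 rose, none fell and 13 were not called, a share of 13.3% called against 45.1% of all rows, and the median log2 fold change was 0.17. Summed over the 15 rows the level was 2043 ± 61.0 in control and 2072 ± 70.3 in ELF4 siRNA libraries, with overlap. PCDHA10, one of the variable alpha genes, had 278, 267 and 285 normalised reads in control and 294, 331 and 330.2 in ELF4 siRNA libraries. The groups did not overlap, and its log2 fold change was 0.20 ± 0.07 (adjusted p = 0.0396). PCDHA9 had 59.4, 68.5 and 68.7 against 84.8, 80.8 and 83.8 and rose by 0.34 ± 0.12 (adjusted p = 0.0275). Both adjusted p values lie near the threshold. PCDHA10 was not called in 5 of the 6 fits that leave out a library, all but the one without ELF4 siRNA replicate 1. Over the 6 fits its log2 fold change was 0.17 to 0.26 and its adjusted p at most 0.121; it was not called by limma without the trend (0.0582) or by DESeq2 (0.115) either. PCDHA9 kept a log2 fold change of 0.27 to 0.38 and was not called without control replicate 1 (0.126), ELF4 siRNA replicate 1 (0.0701) or ELF4 siRNA replicate 3 (0.0561), nor by DESeq2 (0.166).

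Among the alpha genes not called, the log2 fold change ran from -0.14 to 0.69, with the wider intervals at low levels. PCDHAC2, a C-type gene with its own promoter class that serotonergic axons need for spacing, was the alpha gene with the most reads, at 508, 504 and 506 against 464, 433 and 483. All ELF4 siRNA libraries were lower, with a log2 fold change of -0.14 ± 0.06 and an adjusted p of 0.0837, which became 0.0445 without ELF4 siRNA replicate 3. PCDHA11 had 248, 259 and 273 against 240.1, 246 and 248, and PCDHA2 had 248, 246 and 253 against 246, 221 and 223. Neither was called, with intervals of -0.24 to 0.07 and -0.28 to 0.05. PCDHA4 rests on 77 reads in all, with 6.60, 10.3 and 12 normalised reads in control and 19.8, 15.7 and 12.4 in ELF4 siRNA libraries. Its value of 0.69 ± 0.29 was not called (adjusted p = 0.0641), though it was without control replicate 3 (0.0477) or ELF4 siRNA replicate 3 (0.0491). The summed level of PCDHA1 to PCDHA13 was 1337 ± 49.4 in control and 1423 ± 35.3 in ELF4 siRNA libraries, and that of PCDHAC1 with PCDHAC2 was 707 ± 12.6 and 648 ± 41.6. Neither pair of sums overlapped, the first higher and the second lower after ELF4 siRNA, and these sums were not tested.

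The beta cluster held calls in both directions and no net difference. Of 18 PCDHB genes tested, 3 rose, 2 fell and 13 were not called (27.8% called, against 45.1% of all rows), with a median of 0.06 and a sum of 3925 ± 132 in control against 3910 ± 195 in ELF4 siRNA libraries. Beta protocadherins are single-exon adhesion proteins without the shared cytoplasmic part. PCDHB4 had 255, 246 and 247 normalised reads in control and 193, 181 and 183 in ELF4 siRNA libraries. The groups lay well apart, and PCDHB4 fell by 0.42 (SE 0.08, adjusted p = 0.000379), the one beta call that held without any 1 library. PCDHB2 had 489.9, 501 and 446 against 371, 409.7 and 448, and fell by 0.23 (SE 0.08, adjusted p = 0.0264) although the groups overlapped.

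The 3 beta genes that rose did so by small amounts. PCDHB10 had 244, 216 and 201 against 253, 255 and 314, a log2 fold change of 0.31 ± 0.10 (adjusted p = 0.0197). PCDHB9 had 320.4, 337 and 313 against 371, 373 and 357, a value of 0.18 ± 0.07 (adjusted p = 0.0353). In both genes every ELF4 siRNA library was above every control library. PCDHB15 rose by 0.25 ± 0.09 (adjusted p = 0.0369), with overlap between the groups. Among these calls PCDHB2 was lost without control replicate 1 (0.0875) or 2 (0.0773), or without ELF4 siRNA replicate 1 (0.129) or 2 (0.0561). PCDHB10 was lost without control replicate 3 (0.0819) or ELF4 siRNA replicate 3 (0.0960). PCDHB9 was lost without control replicate 1 (0.107) or 3 (0.131), or without ELF4 siRNA replicate 1 (0.0895) or 2 (0.0856). PCDHB15 was lost without control replicate 2 (0.0877) or 3 (0.151), or without ELF4 siRNA replicate 1 (0.0949) or 3 (0.111). Limma without the trend did not call PCDHB10 (0.0799), PCDHB2 (0.0896) or PCDHB15 (0.0726), and DESeq2 did not call PCDHB9 (0.111), PCDHB2 (0.0741) or PCDHB15 (0.100).

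PCDHB16, the beta gene with the highest level, had 1005, 934 and 944 in control and 882, 901 and 978 in ELF4 siRNA libraries, with overlap and an interval of -0.18 to 0.06. It made up 24.5% ± 0.74 of the beta sum in control and 23.5% ± 0.34 in ELF4 siRNA libraries. The pseudogenes PCDHB17, PCDHB18 and PCDHB19P were not called, with log2 fold changes of 0.15, 0.02 and 0.19. PCDHB8 was not called at -0.21 ± 0.08 (adjusted p = 0.0523), and was without ELF4 siRNA replicate 3 (0.0150). PCDHB1, which lies apart from the other beta genes, was under the filter, with 3, 1 and 2 reads in control and 4, 8 and 7 in ELF4 siRNA libraries. The ELF4 siRNA libraries were all higher, and with no filter its adjusted p was 0.0131, on 25 reads in all.

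The gamma cluster was the only one of the 3 whose summed single-name rows did not overlap between the groups, and it held no falls. Of 22 PCDHG genes, 9 rose and 13 were not called (40.9% rose, against 20.7% of all rows tested), with a median log2 fold change of 0.26. The 9 rises include PCDHGB8P, which passed the filter on low values only because of the ELF4 siRNA libraries. The share called in either direction, also 40.9%, was under the 45.1% of all rows. The groups did not overlap in 27.3% of these genes, against 53.6% of all rows. The sum was 4393, 4487 and 4172 normalised reads in control and 4979, 5004 and 5265 in ELF4 siRNA libraries. PCDHGC3, a C-type gamma gene whose protein binds AXIN1 and acts in dendrite growth, made up 55.5% ± 2.04 of that sum in control and 56.7% ± 1.95 in ELF4 siRNA libraries. It had 2465, 2389 and 2385 against 2887, 2889 and 2869. The 3 ELF4 siRNA libraries sat close together above all controls, a log2 fold change of 0.26 ± 0.04 (adjusted p = 0.000126) that held without any 1 library. Without PCDHGC3 the sum was 1938 ± 156 and 2201 ± 169, and the groups overlapped.

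The other gamma genes with many reads did not follow PCDHGC3. PCDHGC4, a C-type gene that mouse neurons need for survival, had 325, 298 and 305 in control and 284, 282 and 277 in ELF4 siRNA libraries. All ELF4 siRNA libraries were lower, but -0.14 ± 0.07 was not called (adjusted p = 0.124). PCDHGB7 had 313, 274 and 264 against 293, 275 and 273 (interval -0.18 to 0.16), and PCDHGA1 had 262, 229.6 and 243 against 245, 238 and 264 (interval -0.15 to 0.19). PCDHGC5, the third C-type gene, was low at 26.7 ± 3.38 and 28.5 ± 3.70 and was not called.

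Most gamma rises lay next to each other. In chromosome order, 7 of the 9 genes from PCDHGA3 to PCDHGB4 rose, and PCDHGB1 and PCDHGA7 within that stretch were not called. Of the 13 gamma genes outside it, PCDHGC3 and PCDHGB8P rose. The stretch was marked out after its values were seen, so it has no test of its own. PCDHGB3 had 69.7, 101 and 84.3 normalised reads in control and 130, 111 and 157 in ELF4 siRNA libraries, without overlap, and rose by 0.64 ± 0.15 (adjusted p = 0.00268). PCDHGB2 had 107, 144 and 106 against 149, 157 and 197 and rose by 0.49 ± 0.13 (adjusted p = 0.00754), the lowest ELF4 siRNA library just above control replicate 2. PCDHGA3 had 40.5, 50.3 and 37.5 against 57.3, 66.2 and 58.0, a rise of 0.50 ± 0.15 (adjusted p = 0.0139). PCDHGA4, PCDHGA5, PCDHGA6 and PCDHGB4 rose by 0.47 to 0.86 (adjusted p 0.0160 to 0.0278) with overlap in all 4.

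In all 7 called genes of the stretch control replicate 2 was the highest control library. In 4 of them it was above the lowest ELF4 siRNA library, and in 6 ELF4 siRNA replicate 3 was the highest of all. Their summed level was 489, 706 and 463 in control and 726, 746 and 952 in ELF4 siRNA libraries. So 2 control libraries were far below the treated ones and control replicate 2 was close to 2 of them. Control replicate 2 was the highest control in 16 of the 22 gamma genes (72.7%), against 35.7% of all rows tested. The share was 46.7% in alpha genes, 38.9% in beta genes and 16.7% in genes outside the clusters. ELF4 siRNA replicate 3 was the highest treated library in 13 gamma genes (59.1%), against 33.5% of all rows. That share was 61.1% in beta genes, 58.3% in genes outside the clusters and 46.7% in alpha genes. The part of these 2 libraries in the result was not tested.

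Leaving out libraries moved these gamma calls in both directions. Without control replicate 1, control replicate 3 or ELF4 siRNA replicate 3, PCDHGA4 (adjusted p 0.0539, 0.0668 and 0.0843), PCDHGA5 (0.0509, 0.0914 and 0.122), PCDHGA6 (0.0974, 0.101 and 0.147) and PCDHGB4 (0.0942, 0.0874 and 0.115) were not called. PCDHGA3 was lost without control replicate 3 (0.0650) or ELF4 siRNA replicate 2 (0.0578). PCDHGB8P, a pseudogene resting on 85 reads, had 7.54, 13.7 and 7.08 against 11, 24.7 and 23.8. It passed the filter on low values only because of the ELF4 siRNA libraries, where it was higher. Its rise of 0.97 ± 0.33 (adjusted p = 0.0287) was lost without control replicate 1 (0.0849) or 3 (0.0870), or ELF4 siRNA replicate 2 (0.124) or 3 (0.123). Without control replicate 2, the log2 fold changes of PCDHGA5 and PCDHGB4 became 1.06 and 1.26. PCDHGB3, PCDHGB2 and PCDHGC3 were called in all 6 such fits, PCDHGB2 with an adjusted p of 0.0458 without ELF4 siRNA replicate 3. Limma without the trend did not call PCDHGB2 (0.0567), PCDHGA4 (0.0845), PCDHGA5 (0.138), PCDHGA6 (0.128), PCDHGB4 (0.112) or PCDHGB8P (0.0900). DESeq2 did not call PCDHGA3 (0.0784), PCDHGA5 (0.186) or PCDHGB8P (0.0558). PCDHGB3 and PCDHGC3 were called by both.

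**Figure D4:**
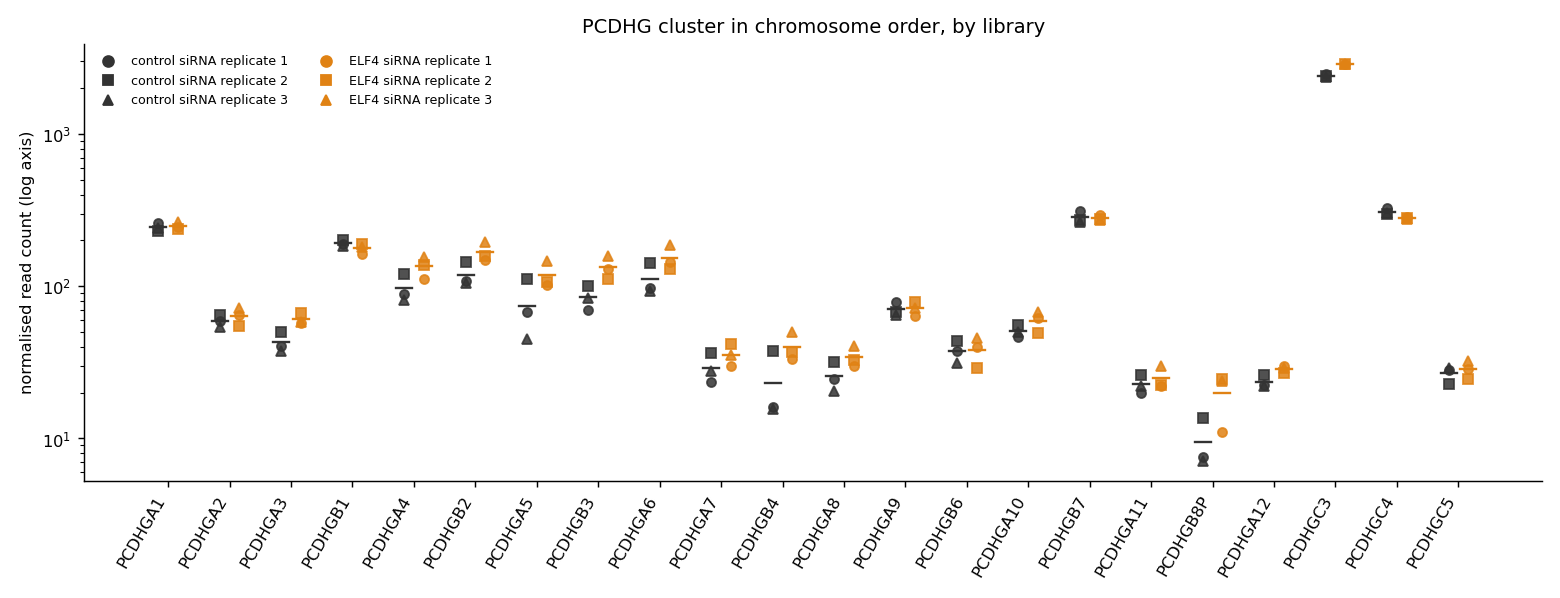
Normalised read count (log axis) of the 22 single-name PCDHG genes in chromosome order in each of the 6 libraries, with a bar at each group mean; grey, control siRNA; orange, ELF4 siRNA; shapes mark replicates. PCDHGC3 is near 2413 in control and 2882 in ELF4 siRNA libraries, and from PCDHGA3 to PCDHGB4 control replicate 2 (grey squares) lies above the other controls and ELF4 siRNA replicate 3 (orange triangles) is mostly at the top.

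The joined rows gave a second reading of the clusters, since their names list genes that share constant exons. PCDHGB5 is not in the gamma joined name and has no row of its own. In GENCODE 29, exon sequence shared by at least 10 genes covers 2866 bases in the alpha cluster and 2181 in the gamma cluster, and which bases fed the joined rows is not given in the sources used here. The gamma joined row had 3881, 3573 and 3558 normalised reads in control and 4128, 4174 and 4075 in ELF4 siRNA libraries. It rose by 0.17 ± 0.04 (adjusted p = 0.00551), without overlap and in all 6 fits that leave out a library, beside 0.22 for the ratio of the summed single-name means, but it was not called by limma without the trend (adjusted p = 0.0514). The alpha joined row had 1214, 1121 and 1238 against 1065, 1034 and 1226, with overlap. It was not called at -0.11 ± 0.07 (adjusted p = 0.209), but was without ELF4 siRNA replicate 3 (-0.18, adjusted p = 0.0246). Per kb of shared exon the control level was 416 for the alpha joined row and 1683 for the gamma joined row. The single-name rows, each per kb of unshared exon, summed to 562 and 1372.

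Other cadherin genes and partners came from lists written for the purpose, and their counts stand beside 20.7% risen and 24.4% fallen over all rows tested. Of 13 classical and type II cadherins tested, 6 rose, 1 fell and 6 were not called, with a median log2 fold change of 0.19. CDH18, a neuronal type II cadherin, rose by 1.37, CDH11, a mesenchymal one, fell by 1.44, and CDH2 (N-cadherin), the main classical cadherin of neural cells and a partner of PCDH19, rose by 0.33. Of 16 genes tested from a list of FAT, Dachsous, flamingo and other long cadherins, 7 rose, 3 fell and 6 were not called. These counts include the receptor tyrosine kinase RET, which fell by 0.18. They also include CLSTN2 and CLSTN3, which rose by 0.39 and 0.33, and CLSTN1, which was not called. CDHR1, a photoreceptor cadherin, rose by 1.62 and CELSR3, a flamingo cadherin of axon tracts, by 0.40. Of 7 catenins, the proteins that tie classical cadherins to actin, 3 rose and 4 fell, among them CTNNA2 by 0.39 and JUP by -0.46. Each of these lists thus held a larger change than any protocadherin, apart from the catenins, in the log2 fold changes given here.

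In the CTCF and cohesin list and the DNA methylation and silencing list more genes fell than rose, as over all rows tested. Of 11 CTCF and cohesin genes, 6 fell, 1 rose and 4 were not called, with a median of -0.12. RAD21, the cohesin subunit that closes the ring, went from 8474 ± 533 to 6191 ± 168 (-0.45, adjusted p = 3.28e-06), CTCF fell by 0.17 (adjusted p = 0.0102), and WIZ, a CTCF and cohesin cofactor, rose by 0.28. Of 15 genes of DNA methylation and silencing, 9 fell, 1 rose and 5 were not called, with a median of -0.17. DNMT3B, a de novo methyltransferase, fell by 0.71 (adjusted p = 2.88e-06). Of 22 cytoplasmic partners and processing proteases, 4 rose, 6 fell and 12 were not called. PPP1CA, the phosphatase bound by PCDH7, fell by 0.44, and WASF3, a subunit of the WAVE complex, fell by 1.23. Over all rows tested 24.4% fell and 20.7% rose. Among those with a mean of at least 100, 32.8% fell and 24.7% rose. None of these lists was tested against those shares.

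Marker lists were read for the identity of the cells. All 10 neuroblastoma and sympathetic neuron markers were tested. Of these, 3 rose, among them STMN2 by 0.57 and CHGA by 0.55, and 4 were not called. The other 3 fell, DBH by 0.17, ISL1 by 0.16 and MYCN by 0.14. The summed level of 8 fibroblast markers was 9158 to 9358 in control and 8101 to 8711 in ELF4 siRNA libraries; of 7 tested, 4 rose (DCN by 0.83), 2 fell (PDGFRB by 1.19) and 1 was not called. The 7 Schwann and glial markers summed to 680 to 712 in control and to 1265 to 1323 in ELF4 siRNA libraries. Most of each sum was PMP22, whose mean went from 436 to 1042, so the sum follows that gene. Of 5 tested, 2 rose (PMP22 by 1.26), 2 fell (ERBB3 by 1.37) and 1 was not called. SOX10, a defining glial gene, was under the filter, with 0.708 to 3.43 normalised reads in control and 2.24 to 9.31 in ELF4 siRNA libraries. Blood and endothelial markers summed to 58.3 to 67.8 and 46.6 to 64.0; of 2 tested, PTPRC rose by 1.06 and CD14 fell by 1.24, but PTPRC passed the filter through 1 control and 3 ELF4 siRNA libraries. Epithelial markers summed to 220.5 to 244 and 185 to 224; of 4 tested, 1 rose (KRT19 by 0.50), 2 fell (CLDN4 by 1.08) and 1 was not called. The part of these markers in the protocadherin values was not tested.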

How the data were processed

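PolyA RNA of 6 libraries was measured by RNA-seq. The authors deposited a signal, a normalised read count per row; the submitters' processing notes name TopHat, featureCounts, DESeq2 and hg19. Versions, annotation, strand setting and filters were not given in the sources used here. Dividing by what 1 read is worth gave whole reads for 100% of values (tolerance 0.001), so the values are counts over a size factor. Genes that overlap, and antisense partners, cannot be told apart.

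Rows that reached 10 in 3 or more libraries were fitted together with limma 3.58.1 (trend, no covariates, R 4.3.3) on log2(value + 1), a scale that understates changes of low genes. Benjamini-Hochberg adjustment ran over all 20339 rows, threshold 0.05, two-sided. Libraries of a group differed by more than sampling noise, so none was merged.

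The members and 11 gene lists (132 genes) were chosen with earlier results of these data known. The text names ELF4 and the protocadherins outside the clusters. Per cluster it names up to 4 rows with the highest mean and 4 with the smallest adjusted p, and per list up to 2 called genes, of which 1 is not reported here. PCDHB8, PCDHB15, the other PCDHG genes of the stretch, PCDHGB8P, PCDHGC5, pseudogenes, CDH2, RET, the CLSTN genes, CTCF, DBH, ISL1 and MYCN were added after their values were seen. The split of motif variants was added then too. Alternatives were pseudocounts, filters, scalings, limma without the trend, edgeR 4.0.16 and DESeq2 1.42.0 on recovered reads, a replicate block, a fold threshold and leaving out each library. The limma step was tested on simulated data. For the ELF4 siRNA comparison, with 20226 genes, it found 63.6% of 99 genes changed by 0.5 and 92.9% of 99 changed by 1, and called 10 unchanged genes. Every simulated gene was given the same spread between libraries, close to the 4.15% that edgeR estimated. The rates need not hold for members with more spread, such as PCDHGA5, at 74.7 ± 33.3 (SD) in control. Exon lengths come from GENCODE 29, promoters from RefSeq GRCh38.p14; no coordinates of hg19 were used. Python 3.11.15, pandas 2.3.3, numpy 2.4.6 and matplotlib 3.10.9 were used.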

Additional observations from a re-analysis of the deposited data

How the results depend on the processing

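The 25 protocadherin calls (18 rose, 7 fell) were all made again with other pseudocounts, TMM or library-total scaling, and edgeR on recovered reads; none reversed under any of the 17 alternatives. Fewer rises were called by limma without the trend (9 rose, 6 fell of 69) and by DESeq2 (11 rose, 6 fell of 69). Of all rows, these settings called 38.5% and 36.9%, against 45.1% in the main fit. The cause was not tested. Requiring a log2 change of at least 0.5 left 7 rises and 2 falls among protocadherins, and 1475 rises and 1561 falls among all rows against 4217 and 4956, by construction. Leaving out 1 library gave 10 to 18 rises and 6 to 10 falls among protocadherins, and called 37.7% to 44.6% of all rows. Of the 25 calls, 13 were made in all 6 such fits, 8 outside the clusters, 4 in PCDHG (joined row included), 1 in PCDHB and 0 in PCDHA. Same-numbered libraries correlated at 0.03, 0.07 and 0.04 in their deviations, too little to pair them. With the replicate block 19 protocadherin rows rose and 8 fell, against 18 and 7, with PCDHA3 and PCDHB8 added. The block called 48.7% of all rows, against 45.1% without it. Among the 31 protocadherin rows with a mean under 100 normalised reads, 6 (19.4%) were called, against 22.9% of all tested rows of that level. The part of depth in this was not tested.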
